A study of Danio rerio with 5 samples.

Results

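Dividing cells were examined among zebrafish cells sorted for a reporter of pdgfrb, the gene of a platelet-derived growth factor receptor that is carried by pericytes and by many connective tissue cells. A droplet barcode of either single-cell library was taken as a dividing cell when it passed the filters on genes and mitochondrial UMIs given below and held at least 1 UMI (unique molecular identifier, a count of captured RNA molecules) of at least 4 of 7 genes: ube2c, top2a, kpna2, aspm, cenpf, cdk1 and mki67. By this rule 739 of 13786 kept barcodes, out of 22303 called barcodes, were dividing: 293 of 5935 kept barcodes in library 1 and 446 of 7851 in library 2. The cells were chosen by the measured UMIs of these 7 genes, so the levels of the genes here are a description.

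The single-cell libraries came from larvae of the strain Tg(pdgfrb:egfp)ncv22 at 5 days post fertilization, with an EGFP reporter driven by pdgfrb sequences, and hold 1 condition. 3 bulk libraries came from cells sorted for a citrine reporter, at the same age, from Tg(pdgfrb:citrine)s1010 larvae carrying the um148 allele, which the strain label assigns to pdgfb; which gene it disrupts was not settled from the files. In the authors' deposited table these um148 libraries are compared with wild-type cells. Replicates are not stated to come from separate animals or sorts, so every p-value measures only a spread between libraries, which may be technical. In the single-cell data it is the spread, between the 2 libraries, of the difference between dividing and other barcodes. The authors' p-values also rest on wild-type libraries that match no sample of the series. Whether the larvae of a library were pooled is not given in the sources used here, and a reporter can mark cells that no longer hold the transcript of its gene.

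A cell that divides first copies its DNA, with replication enzymes made ahead of and during S phase, and then condenses and separates the copies in mitosis, with kinases, cyclins, kinesins and kinetochore proteins that build up in G2 and are degraded at mitotic exit. The genes of the rule belong mainly to the later programme: Top2a untangles sister DNA, Cdk1 is the mitotic cyclin-dependent kinase, Ube2c supplies ubiquitin to the anaphase-promoting complex, Cenpf and Aspm act at kinetochores and spindle poles, Kpna2 carries proteins into the nucleus, and Mki67 coats mitotic chromosomes. In a larva, neural progenitors, muscle progenitors and growing mesenchyme divide while differentiated neurons and muscle fibres do not.

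The share of dividing barcodes was 4.94% in library 1 (exact binomial 95% interval 4.40 to 5.52) and 5.68% in library 2 (5.18 to 6.22), a mean of 5.31% ± 0.526 (SD, n = 2 libraries). These intervals, like all intervals and limits given here, cover counting error only. The filters kept barcodes with at least 500 detected genes and at most 10% of UMIs in 13 mitochondrial genes, which is 49.0% of called barcodes in library 1 and 77.1% in library 2. No dividing barcode sequence occurred in both libraries, where 30 called and 11 kept ones did. Doublets were kept: a simulated-doublet score with a fixed removal rate would have taken out 11.6% of dividing against 4.40% of other kept barcodes in library 1, and 11.2% against 5.98% in library 2. What doublets contribute was not tested beyond removing them, after which the mean share was 4.98%.

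Kept barcodes separated into a large group without the 7 genes and a small group with nearly all of them. In library 1, 4850 kept barcodes held none of the genes, 47 held 3, 61 held 4 and 109 held all 7. In library 2, 6349 held none, 73 held 3, 96 held 4 and 164 held all 7. The number of barcodes was thus lowest at 3 genes, just outside the rule, and was higher again at 7. A dividing barcode carried a median of 21 UMIs of the 7 genes in library 1 (4 to 146) and 22 in library 2 (5 to 129).

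**Figure D1:**
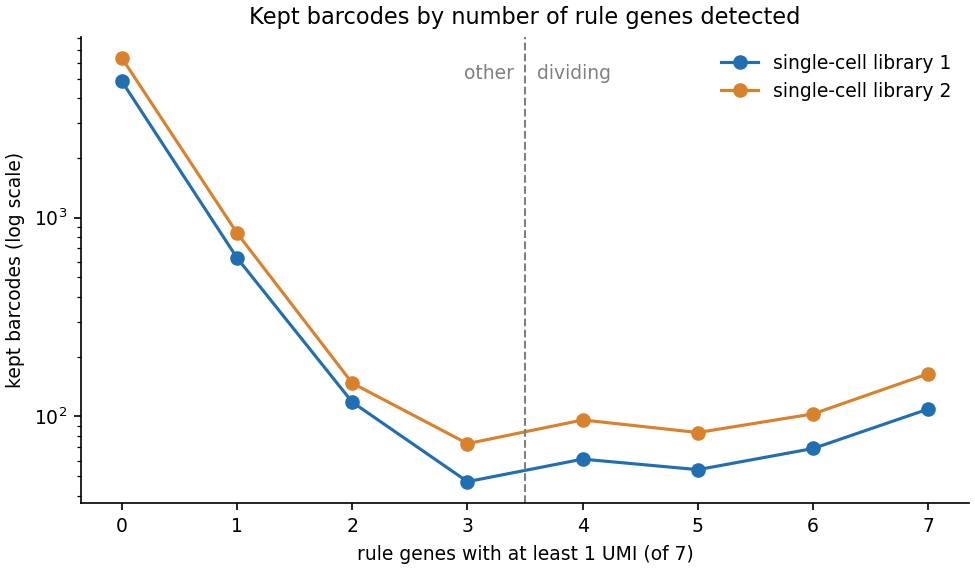
Number of kept barcodes (log axis) against the number of the 7 rule genes with at least 1 UMI, for single-cell libraries 1 and 2; the dashed line is the limit of the rule. Both libraries have their lowest number at 3 genes, with 47 and 73 barcodes, and higher numbers at 7 genes, with 109 and 164.

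Dividing barcodes were deeper than the rest. Their median was 12030 UMIs in library 1 and 12748 in library 2, against 5640 and 6027 UMIs in the other kept barcodes. They held a median of 2493 and 2612.5 genes, against 1382.5 and 1469 genes. Mitochondrial UMIs were a smaller share of dividing barcodes, with medians of 2.38% and 2.45%, against 3.39% and 3.54% in the others. With every barcode thinned to 2000 UMIs the mean share was 1.56%, a fall that the removal of UMIs brings about in any case. Why dividing barcodes were deeper was not tested. A rule that asks for UMIs of 4 genes can be met more easily by a deep barcode. Levels below are therefore given as CPM, the UMIs of a gene per 1000000 UMIs summed over a class of barcodes in 1 library, and shares of barcodes are given with and without thinning.

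Of the 7 rule genes, mki67 was the most abundant in dividing barcodes, with 421 CPM in library 1 and 507 CPM in library 2, where other kept barcodes had 13.1 and 14 CPM, and 98.0% and 98.7% of dividing barcodes held it. Top2a stood at 237 and 248 CPM in dividing barcodes, against 3.51 and 3.89 CPM. Aspm was the scarcest of the 7, at 133 and 144 CPM against 1.25 and 1.31 CPM. The level of each gene was close between the libraries. Kpna2, the least often detected, was found in 61.1% and 62.6% of dividing barcodes. Ube2c (231 and 234 CPM against 3.43 and 3.48), cdk1 (151 and 150 against 2.48 and 2.46) and cenpf (160 and 171 against 1.97 and 1.89) lay between them.

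Genes of mitosis that the rule did not name were higher together with it. A gene was counted as higher when its CPM in dividing barcodes was at least 4-fold that of other kept barcodes, was at least 20 and was held by at least 10% of dividing barcodes, each in both libraries. Over 5095 genes with at least 20 CPM in either class, 170 were higher (3.34%) and 15 were lower by the mirror rule (0.294%), and the median log2 fold was 0.13. Because division genes are expressed together with the genes that chose the cells, their counts are a description without a test. Of the 170 higher genes, 7 were the rule genes, 61 were in 6 lists of division genes and 102 were in neither.

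The kinetochore, spindle and cytokinesis list had 28 of its 29 members with 20 CPM higher, with a median log2 fold of 4.95. Tpx2, which activates Aurora kinase A on spindle microtubules, stood at 141 CPM in each library's dividing barcodes, against 3.03 and 3.13 CPM in the others. Nusap1, a microtubule-bundling protein, stood at 135 and 144 CPM against 2.03 and 1.76. Dlgap5 (93.2 and 92.9 CPM against 2.31 and 2.51) and the spindle motor kif11 (88.1 and 83.9 against 1.1 and 1.26) had similar gaps. All of these genes were near absent from the other barcodes, where the whole list summed to 69.1 and 70.3 CPM. Genes this scarce there met the limit of 20 CPM only through dividing barcodes. The counts and medians of this list and the next thus follow in part from that limit. They are not a like comparison with the share over all genes. In the list of mitotic kinases, cyclins and checkpoint genes 15 of 19 members were higher, with a median log2 fold of 4.98. The chromosome passenger kinase aurkb had 110 and 131 CPM against 3.45 and 4.21, and the spindle checkpoint gene mad2l1 had 116 and 122 CPM against 2.43 and 3.22. Cyclins ccna2 (79.5 and 90.4 CPM against 2.98 and 2.97) and ccnb1 (75.4 and 89.7 against 1.33 and 1.26) did likewise.

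Genes of chromosome structure were also higher, and those named here were more abundant in the other barcodes than the mitotic genes named above. Of 19 members 13 were higher, with a median log2 fold of 2.78. Hmgn2, a nucleosome-binding protein, stood at 6115 and 7402 CPM in dividing barcodes, against 928 and 1033 CPM, and was detected in all dividing barcodes and in 92.3% and 93.7% of the others. The chromatin proteins hmgb2a (2180 and 2484 CPM against 317 and 342) and hmgb2b (1360 and 1591 against 277 and 286) and the microtubule regulator stmn1a (466 and 587 against 86.5 and 95) were also higher. The cohesin subunits rad21a (178 and 197 CPM against 68.9 and 74.0) and smc1al (138 and 156 against 54.5 and 54.9) did not reach 4-fold.

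DNA replication genes were raised far less than mitotic genes, with 5 of 36 members higher and a median log2 fold of 1.21. Among them were rrm2 and rrm1, the subunits of ribonucleotide reductase, slbp, which binds histone mRNA, and thymidine kinase tk1. Rrm2 stood at 132 and 211 CPM in dividing barcodes, against 11.1 and 19.5 CPM. The sliding clamp pcna, at 371 and 400 CPM against 142 and 146, and dut, which removes dUTP, at 167 and 231 against 47.5 and 55.0, did not reach 4-fold. The helicase subunits mcm2 and mcm4 had mean log2 folds of 0.36 and 0.26. Replication genes were thus also present in many barcodes outside the rule, as described next. The rule genes are mainly mitotic, so the larger folds of the mitotic lists follow in part from the rule itself.

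**Figure D2:**
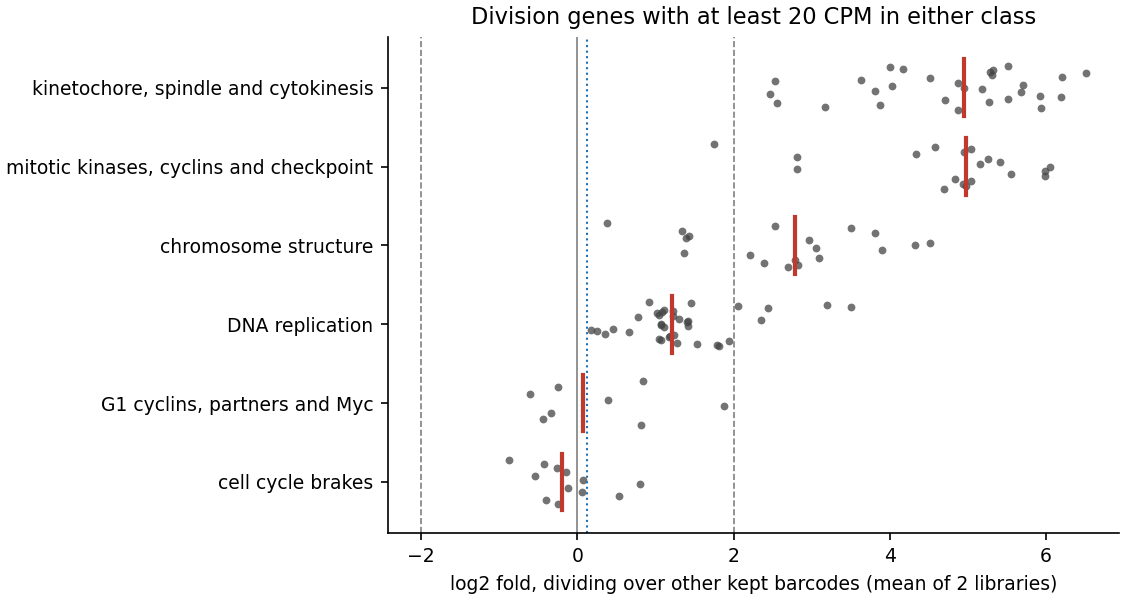
Log2 fold of CPM in dividing over other kept barcodes (mean of 2 libraries) for each member with at least 20 CPM of 6 division lists; red bars are list medians, dashed lines mark 4-fold and the dotted line is the median of all such genes, 0.13. The kinetochore and mitotic lists have medians of 4.95 and 4.98, DNA replication 1.21, and the G1 and brake lists 0.07 and -0.19.

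As lists, genes that act before S phase or restrain it did not follow the mitotic genes. Of 8 G1 cyclin, partner and Myc genes and of 12 brake genes with 20 CPM, none was higher by 4-fold, and the medians were 0.07 and -0.19. Single members ranged in mean log2 fold from -0.61 to 1.87 for the G1 list and from -0.875 to 0.80 for the brakes. Mycb stood at 169 and 190 CPM in dividing barcodes, against 270 and 277 CPM, and mych at 118 and 97.8 against 141 and 116. These 2 were named as the most abundant of the G1 list and do not stand for it, since other members rose. Cdkn1a, the p21 inhibitor of cyclin-dependent kinases, stood at 629 and 722 CPM in dividing barcodes, against 380 and 393 CPM, and was detected in 90.1% and 89.0% of them. Btg2, an antiproliferative gene, stood at 426 and 404 CPM against 542 and 554. The cdkn1a transcript was thus present in most dividing barcodes, but these were deeper than the others, so that share alone does not set them apart.

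Dividing barcodes ranged from replication-heavy to mitosis-heavy. Per 10000 UMIs, they held a median of 18.4 UMIs of the replication list in library 1 and 21.3 in library 2, against 3.04 and 3.02 in the others, and 28.2 and 29.0 UMIs of the 2 mitotic lists, against 0 and 0. Replication UMIs outnumbered mitotic ones in 45.1% and 45.7% of dividing barcodes. The balance moved with the number of rule genes, which are mainly mitotic and expressed together with these lists, so this is a description. Barcodes with 4 rule genes had medians of 29.7 and 47.0 replication UMIs and 15.2 and 21.4 mitotic UMIs, and barcodes with all 7 had 7.91 and 10.2 replication and 48.4 and 44.2 mitotic UMIs. Barcodes with 3 rule genes, just outside the limit, had 47.5 and 50.8 replication and 9.75 and 13.3 mitotic UMIs, so the limit falls within a series of barcodes rich in replication transcripts.

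**Figure D3:**
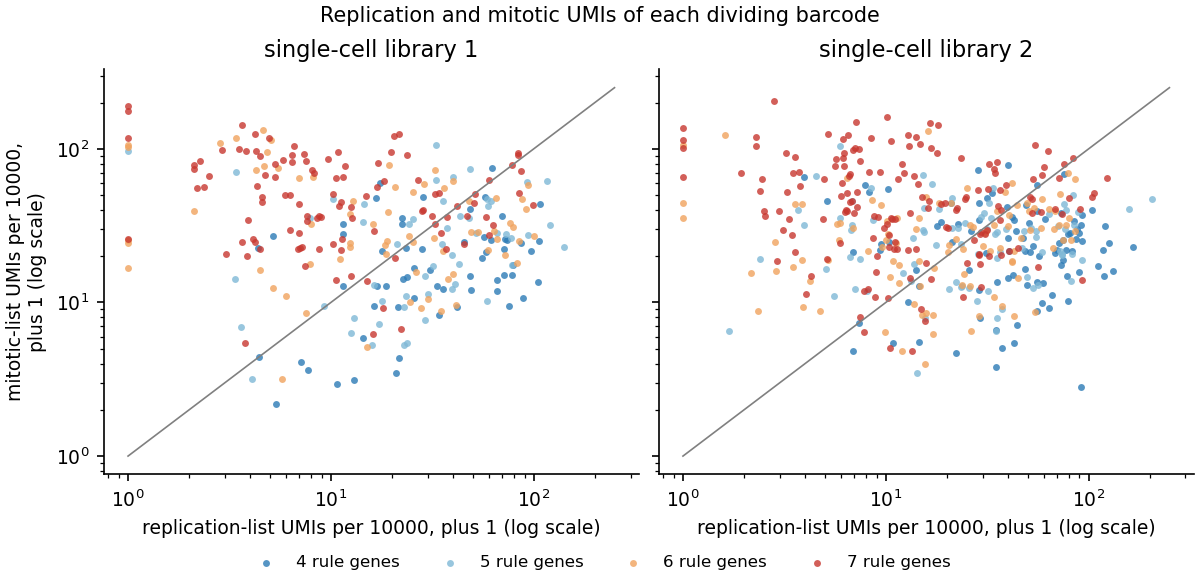
UMIs of the DNA replication list (x axis) and of the 2 mitotic lists (y axis) per 10000 UMIs, plus 1, on log axes, for each dividing barcode of single-cell libraries 1 and 2, coloured by the number of rule genes; the line marks equal values. Barcodes with 7 rule genes lie mostly above the line and those with 4 mostly below it, in both libraries.

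Many barcodes outside the rule had replication transcripts at the level of dividing barcodes. In library 1, 866 other kept barcodes (15.4%) lay at or above the dividing median for replication UMIs, and 557 of these held none of the 7 rule genes. In library 2 the numbers were 1005 (13.6%) and 648. Only 13 and 21 other barcodes reached the dividing median for mitotic UMIs. The rule genes are mainly mitotic, so the small number of other barcodes with many mitotic UMIs follows from the rule itself. Kept barcodes with none of the rule genes were shallow, with medians of 5299 and 5667 UMIs, and no count at equal depth is given here. Whether barcodes with replication transcripts alone came from cycling cells was not tested, and no cell cycle phase was assigned.

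Outside the rule genes and division lists, the 15 genes with the largest smaller-of-both-libraries fold were tacc3, zgc:194627, si:ch211-69g19.2, kmt5ab, iqgap3, numa1, knstrn, kif20bb, zgc:86764, spdl1, cks2, ckap2l, si:dkey-25o16.4, hist1h2a6 and si:ch73-36p18.1. Tacc3, which stabilises spindle microtubules, stood at 60.0 and 65.8 CPM in dividing barcodes, against 0.571 and 0.776 CPM. Numa1, which tethers microtubules at spindle poles, stood at 54.3 and 61.6 CPM against 1.31 and 1.63. The kinetochore protein spdl1 (50.3 and 55.9 CPM against 1.61 and 1.63), the Cdk-binding protein cks2 (52.1 and 62.9 against 1.69 and 2.18) and the histone methyltransferase kmt5ab (20.6 and 24.0 against 0.487 and 0.289) had comparable gaps. The uncharacterised si:ch211-69g19.2 reached 131 and 147 CPM, against 2.12 and 2.46. Reads of histone genes such as hist1h2a6, at 49.9 and 51.6 CPM against 1.95 and 1.78, may be split among near-identical copies, so its level is uncertain.

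The 10 lowest genes by the mirror rule were epd, tpma, pvalb2, pvalb1, mylz3, tnnt3b, mylpfa, tnni2a.4, actc1b and ggctb, of which 8 are contractile or calcium-buffering genes of muscle fibres. Actc1b, an alpha actin, stood at 110 and 262 CPM in dividing barcodes, against 1436 and 1878 CPM, and pvalb2, a parvalbumin, at 37.1 and 49.1 against 553 and 614. Epd, which encodes the secreted protein ependymin, stood at 45.5 and 47.7 CPM against 971 and 915. These levels differ far more than the shares of barcodes with a UMI: epd was detected in 39.6% and 55.2% of dividing barcodes, against 42.3% and 53.3% of the others, with a median of 1 UMI where detected in both classes. A single dividing barcode of library 2 held 87.1% of that library's 899 dividing mylpfa UMIs.

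Lineage markers were not used by the rule, and they were compared between the classes with edgeR's quasi-likelihood test on UMIs summed per library and class, with library as a block and Benjamini-Hochberg adjustment over all 20337 genes tested. The fit has 1 residual degree of freedom. It called 2659 genes higher in dividing barcodes (13.1%) and 2347 lower (11.5%) at an adjusted p under 0.05, 24.6% in either direction. Of 150 tested markers of 22 lineages, 27 were higher and 61 lower. The lists were chosen with earlier results of these data known, so their counts beside the call rate are a description. Depth moves with the classes, as given above, so the test was repeated against other barcodes sampled to match the dividing ones by UMI decile within library. It called 29 of 146 markers higher and 47 lower, and its counts are given beside the lists below where they differ. The share of all genes called against depth-matched barcodes is not given here. These depth-matched counts therefore cannot be set against a general call rate.

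Neurogenic genes rose as a list. All 7 tested neurogenic factors were higher, where the call rate over all genes was 13.1%. This count is a description, since the list was chosen with earlier results of these data known. The Notch ligand dla stood at 63.5 and 74.7 CPM in dividing barcodes, against 6.35 and 8.31 CPM, a log2 fold change of 3.17 (SE 0.114, edgeR adjusted p = 0.000409, higher in both libraries). The proneural factor ascl1a stood at 26.4 and 36 CPM against 2.58 and 3.36 (3.31, SE 0.117, edgeR adjusted p = 0.0004), and insm1a, a zinc finger factor of neural progenitors leaving the cycle, at 30.1 and 30.9 against 3.81 and 4.70 (2.77, SE 0.145, edgeR adjusted p = 0.00114). All 7 were higher against depth-matched barcodes too. Of 8 glial and neural progenitor markers, 5 were higher and none lower. These were the progenitor transcription factors sox2, sox3 and sox19a, the radial glial fatty acid binding protein fabp7a and the Notch target her4.1. Sox2 stood at 38.9 and 43.1 CPM against 8.21 and 9.26, a log2 fold change of 2.16 (SE 0.102, edgeR adjusted p = 0.000862). Slc1a2b, the glial glutamate transporter, stood at 39.1 and 51.8 CPM against 49.96 and 58.5 and did not pass (edgeR adjusted p = 0.0573), and against depth-matched barcodes it turned higher (0.54, edgeR adjusted p = 0.0426).

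Markers of mature neurons were lower apart from 1, but only against barcodes of all depths. Elavl3, an RNA-binding protein that appears as neurons are born, stood at 244 and 261 CPM in dividing barcodes, against 112 and 121 CPM (log2 fold change 1.04, SE 0.0939, edgeR adjusted p = 0.0041). The other 7 neuron markers were lower, including elavl4 at 40.9 and 39.9 CPM against 65.9 and 69.8, and the synaptic gene sncb at 18.5 and 23.8 against 47.6 and 49.97. Against depth-matched barcodes elavl3 was again the 1 neuron marker higher, and 0 were lower: 7 of 8 log2 fold changes were then positive, with elavl4 at 0.45 (edgeR adjusted p = 0.054) and sncb at 0.22 (0.208). Barcodes rich in neuron markers were shallow, as given below.

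Muscle fibre markers were lower as a list, and muscle progenitor markers were mixed. Of 7 muscle progenitor markers, pax7a, pax7b and pax3a were higher and none was lower. Pax7a stood at 18.3 and 22.8 CPM in dividing barcodes, against 8.11 and 8.27 CPM (log2 fold change 1.25, SE 0.122, edgeR adjusted p = 0.00489). Myod1, myog, myf5 and meox1 were not called and had negative log2 fold changes. All 8 skeletal muscle fibre markers were lower. Against depth-matched barcodes 3 progenitor markers were higher and myod1 was lower (-1.05, edgeR adjusted p = 0.0197), and all 8 fibre markers were lower. Some dividing barcodes with at least 3 muscle progenitor markers also held at least 3 glial and neural progenitor markers. They were 12 of 20 in library 1 and 15 of 32 in library 2. The list alone does not set them apart as muscle progenitors.

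Markers of differentiated connective tissue and mural cells were lower or not called. All 6 tested smooth muscle markers were lower; tagln stood at 751 and 1010 CPM in dividing barcodes, against 1594 and 1490 CPM, and acta2 at 654 and 798 against 1214 and 1190. Of 8 fibroblast markers 6 were lower, among them dcn at 98.2 and 92.4 CPM against 236 and 255. The fin fold, chondrocyte and tenocyte lists had 5 of 7, 5 of 8 and 5 of 6 markers lower, and none of the 3 lists had a higher one. And2, a fin fold fibre gene, stood at 928 and 605 CPM against 2596 and 2760, and col2a1a, the cartilage collagen, at 2089 and 1334 against 2399 and 2673 (edgeR adjusted p = 0.0935, not called). The mesenchyme progenitor list was mixed, with dlx5a and shox higher and 4 of 8 lower, including twist1a at 81.5 and 94.6 CPM against 138 and 141. Shox was not called by DESeq2 (adjusted p = 0.0753) or with doublets removed (edgeR adjusted p = 0.0956), and against depth-matched barcodes neither twist1a (edgeR adjusted p = 0.0669) nor prrx1b (edgeR adjusted p = 0.0714) was called, which left 2 of 8 lower. Against those barcodes 6 of 6 smooth muscle, 4 of 8 fibroblast, 4 of 7 fin fold, 3 of 8 chondrocyte and 2 of 6 tenocyte markers were lower and 0 were higher.

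The pericyte list had few calls. Of 7 markers, notch3 was higher, rgs5b lower and 5 were not called. Notch3, the Notch receptor of mural cells and of neural progenitors, stood at 140 and 137 CPM in dividing barcodes, against 75.8 and 75.8 CPM (log2 fold change 0.80, SE 0.095, edgeR adjusted p = 0.00782). Rgs5a, a regulator of G protein signalling, stood at 142 and 138 CPM against 166 and 180 and was not called (edgeR adjusted p = 0.0712), and rgs5b stood at 89.2 and 124 against 150 and 150 (-0.58, SE 0.125, edgeR adjusted p = 0.0344). The abcc9 and kcnj8 channel genes, which define brain pericytes, were scarce in both classes, at most 5.79 CPM in dividing barcodes and 8.82 CPM in others. Pdgfrb itself stood at 39.6 and 38.3 CPM in dividing barcodes, against 55.6 and 58.8 CPM (-0.63, SE 0.105, edgeR adjusted p = 0.0182), and was detected in 27.0% and 27.4% of dividing barcodes, against 27.4% and 28.1% of the others. Neither pdgfrb (-0.12, edgeR adjusted p = 0.545) nor rgs5b (-0.12, edgeR adjusted p = 0.446) was called against depth-matched barcodes, where notch3 (0.95, edgeR adjusted p = 0.00762) and the pericyte surface gene cd248a (0.48, edgeR adjusted p = 0.0433) were higher. The reporter transcript has no row in the files used here.

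The remaining lists were mixed. Of 8 epidermal markers icn was higher and krtt1c19e lower, and krt5 (1554 and 986 CPM against 1884 and 1829) and krt4 (1497 and 933 against 1682 and 1824) were not called. Against depth-matched barcodes 7 of the 8 were lower and none was higher, with krt5 at -1.52 (edgeR adjusted p = 0.0134) and icn at -0.082 (0.509). Of 7 endothelial markers pecam1 alone was higher, a call that was lost with DESeq2 (adjusted p = 0.157) and against depth-matched barcodes (edgeR adjusted p = 0.425), where fli1a was higher instead (0.57, edgeR adjusted p = 0.0432). Of the 7 erythroid markers tested 6 were higher, but this rests on few barcodes: 1 dividing barcode held 67.8% of the hbae1.1 UMIs of library 1 and another held 41.8% in library 2. No oligodendrocyte and Schwann or retina marker was called. Olig2 (1.49, edgeR adjusted p = 0.0502) was called higher against depth-matched barcodes (2.38, edgeR adjusted p = 0.0222) and with doublets removed, where mbpa was called lower (edgeR adjusted p = 0.0389). Lower markers numbered 3 of 8 tested in the immune list, 3 of 7 in pigment and 3 of 5 in gut and liver. They numbered 3 of 3 in heart muscle and 1 of 6 in osteoblast, where 11.5% of all genes were lower. Against depth-matched barcodes these lists, in the same order, had 2 of 8, 2 of 7, 3 of 5, 2 of 2 and 1 of 6 lower. In library 1 a single dividing barcode held 71.5% of the 11618 dividing UMIs of prss1, a pancreatic protease.

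Per barcode, a lineage was counted as carried when at least 3 markers of its list had a UMI. More than 1 list was carried by 59.0% and 67.3% of dividing barcodes in libraries 1 and 2, against 41.0% and 42.6% of the others. The shares below therefore overlap and do not give the make-up of the dividing cells. Neural progenitor lists marked dividing barcodes most. The glial and neural progenitor list was carried by 20.8% of dividing barcodes in library 1 and 22.6% in library 2, against 3.01% and 3.36% of the others. The neurogenic list was carried by 12.3% and 13%, against 0.408% and 0.635%. Conversely, 36 of 59 neurogenic barcodes in library 1 (61.0%) and 58 of 105 in library 2 (55.2%) met the dividing rule, where 4.94% and 5.68% of all kept barcodes did. Of the barcodes with the glial and neural progenitor list 26.4% and 28.9% were dividing, and of those with the muscle progenitor list 25% and 27.4%. With lists called at 2000 UMIs and at least 2 markers, the neurogenic share was 48.4% and 45.1%. The glial and neural progenitor share was then 13.2% and 15.9%, and the muscle progenitor share 11.9% and 14.9%. Of all barcodes left at that depth 5.13% and 5.86% were dividing by the unthinned rule. The muscle progenitor list was carried by 6.83% and 7.17% of dividing barcodes, against 1.06% and 1.15%.

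Epidermis, mesenchyme progenitor and pericyte were the lists carried by the most dividing barcodes in both libraries. Epidermis was carried by 36.2% and 28.7% of dividing barcodes, against 24.7% and 23.3% of the others and 42.7% and 40.5% of depth-matched others, so it turned at matched depth. Mesenchyme progenitor was carried by 29.0% and 31.6% of dividing barcodes against 15.9% and 17.8% (26.5% and 28.9% depth-matched), and pericyte by 25.3% and 28.7% against 12.2% and 13.1% (19.02% and 19.8% depth-matched). Fibroblast was carried by 22.5% and 21.1%, against 21.9% and 23.0% of the others and 31.0% and 30.4% of depth-matched ones, and skeletal muscle by 21.8% and 22.9%, against 17.1% and 16.99% of the others and 26.6% and 24.9% of depth-matched ones. Any of the 8 mural and mesenchymal lists was carried by 56.7% and 57.8% of dividing barcodes, against 57.4% and 58.7% of the others and 69.8% and 69.9% of depth-matched others, so the share was lower in dividing barcodes at matched depth. A neural progenitor list was carried by 24.9% and 26.7% of dividing barcodes, against 3.28% and 3.63% (3.77% and 4.71% depth-matched). Both kinds together were carried by 6.14% and 5.38% of dividing barcodes, against 0.815% and 0.905% (1.41% and 2.15% depth-matched).

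These shares changed with depth, and whether free RNA adds to them was not tested. Barcodes with at least 5 of 8 neuron markers should lack other lineages; of 298 and 401 such barcodes, with median depths of 3544 and 3588 UMIs, 17.8% and 12.5% carried the epidermal list and 13.8% and 13.5% the skeletal muscle list. The pericyte list was carried by 3.02% and 2.49% of them and the neurogenic list by 1.34% and 0.499%. Thinned to 2000 UMIs, with at least 2 markers required, the neurogenic list was still carried by 10.3% and 9.19% of dividing barcodes, against 0.595% and 0.697%, and the glial and neural progenitor list by 12.0% and 12.8%, against 4.29% and 4.2%. Muscle progenitor stood at 2.75% and 3.36%, against 1.1% and 1.20%. At this depth the pericyte list was carried by 13.1% and 14.1% of dividing barcodes, against 12.0% and 13%, so most of its gap was gone, and the mesenchyme progenitor list by 10.0% and 11.4%, against 12.0% and 12.0%. The fibroblast list was lower, at 6.53% and 5.83% against 21.7% and 22.4%, as did skeletal muscle, at 5.15% and 4.71% against 13.3% and 13.7%. Epidermis then stood at 26.1% and 19.7%, against 23.2% and 21.7%, with opposite order in the 2 libraries. Thinning left out 2 and 0 dividing and 260 and 235 other barcodes.

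**Figure D4:**
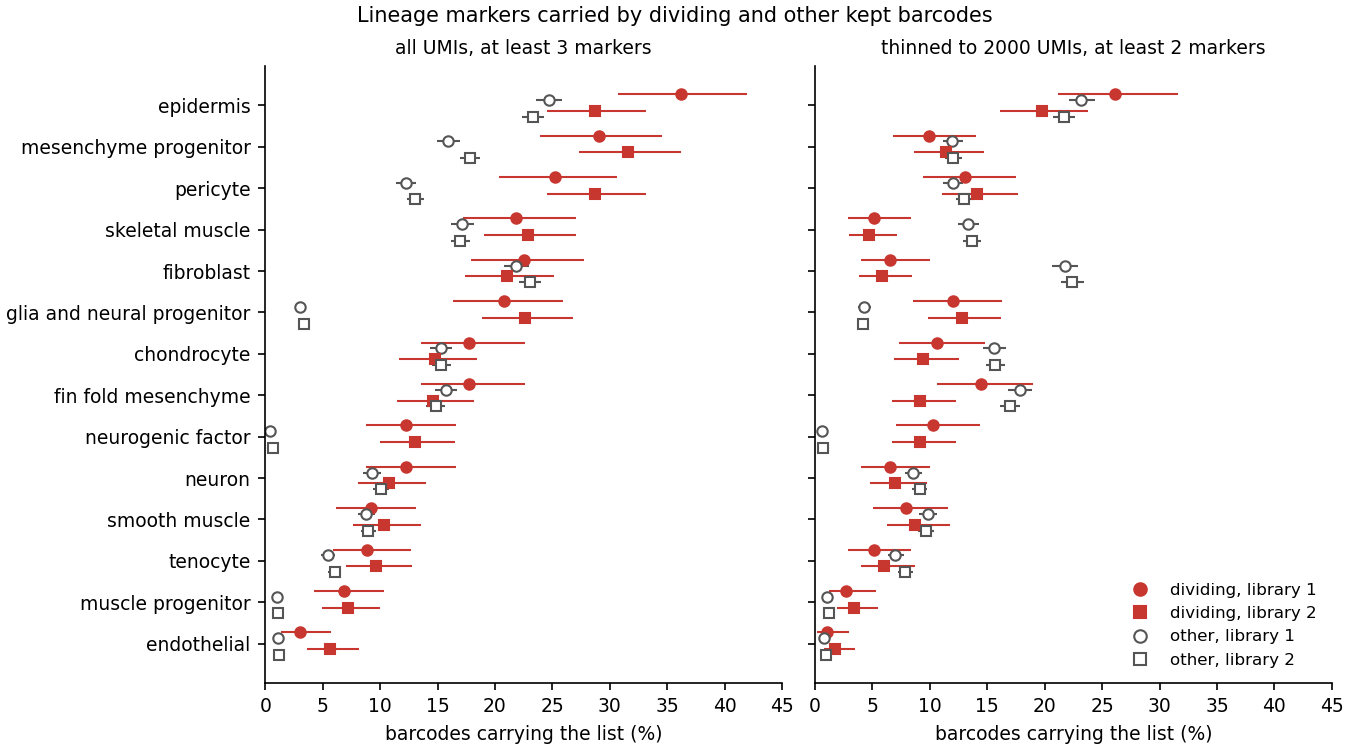
Share of dividing (red) and other kept (open) barcodes that carry each lineage list, with exact binomial 95% intervals, in single-cell libraries 1 (circles) and 2 (squares), for lists carried by at least 5% of dividing barcodes in either library; left with all UMIs and at least 3 markers, right thinned to 2000 UMIs with at least 2 markers. The neurogenic and glial and neural progenitor lists keep a gap, smaller than before, after thinning, at 9.19% to 12.8% of dividing against 0.595% to 4.29% of other barcodes, and the fibroblast and skeletal muscle lists are lower in dividing barcodes.

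Of the 22 lists, 15 were carried by a larger share of dividing than of other barcodes in both libraries, 7 were so after thinning and 9 against other barcodes matched for depth. The pericyte, glial and neural progenitor, neurogenic, muscle progenitor and erythroid lists were larger under every one of these settings, with doublets removed and with 2 markers required. The erythroid list was carried by only 3 and 9 dividing barcodes. The smooth muscle list was carried by 9.22% and 10.3% of dividing barcodes, against 8.79% and 8.95% of the others, and turned under 3 settings. With doublets removed it was 5.79% and 4.04% against 7.29% and 7.21%, thinned 7.9% and 8.74% against 9.81% and 9.67%, and against depth-matched barcodes 9.22% and 10.3% against 13.7% and 13.4%. Dividing barcodes with that list had been deep, with medians of 34114 and 28382.5 UMIs.

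Dividing barcodes of different lineages differed in their division genes. In the sentences that follow, lineages and genes were chosen after their values were seen, lists overlap, and no test was made, since cells of 1 library are not replicates. The neural lists overlapped: 24 of 36 neurogenic dividing barcodes in library 1 and 40 of 58 in library 2 also carried the glial and neural progenitor list. Likewise 12 of 20 and 15 of 32 muscle progenitor dividing barcodes did. Of pericyte dividing barcodes, 45 of 74 and 82 of 128 also carried the mesenchyme progenitor list, and 43 of 74 and 38 of 128 the epidermal list. Neurogenic dividing barcodes had medians of 55.2 and 57.1 mitotic UMIs per 10000, against 28.2 and 29.0 in all dividing barcodes, and glial and neural progenitor ones had 45.9 and 34.2 replication UMIs, against 18.4 and 21.3.

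The G1 cyclin ccnd1 was uneven among dividing barcodes. It stood at 278 and 204 CPM in those with the glial and neural progenitor list, 281 and 272 CPM with the neurogenic list and 354 and 178 CPM with the muscle progenitor list. With the pericyte list it stood at 45.5 and 50.4 CPM, with mesenchyme progenitor 65.8 and 59.6, and with epidermis 70.8 and 71.9. Cdkn1a ran the other way, at 645 and 932 CPM with the pericyte list and 313 and 394 with the neurogenic list. Notch3 was higher with the neural and muscle progenitor lists, at 259 and 232 CPM with glial and neural progenitor and 314 and 186 with muscle progenitor, than with the pericyte list that contains it, at 138 and 166. Elavl3 stood at 1275 and 1969 CPM with the neurogenic list, against 85.2 and 41.0 with the pericyte list. Pdgfrb stood at 79.5 and 82.8 CPM with the pericyte list, 9.32 and 14.1 with glial and neural progenitor and 23.8 and 6.22 with neurogenic. Dividing barcodes with neural markers thus held little of the transcript whose reporter was used to sort them.

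The bulk libraries give a readout that the rule did not use. In the authors' deposited table, 34 of the 167 rule and division genes with an adjusted p were lower in um148 than in wild-type cells and 0 were higher, by the authors' adjusted p under 0.05, where 5.13% of all genes were lower and 6.18% higher. At an unadjusted p under 0.05 in the same authors' deposited table, 62 were lower and 1 was higher. The table does not state which group its fold change is over. The mean um148 signal summed to 19212955 over all genes, against an implied wild-type sum of 20284258 when the folds are read as um148 over wild-type and 91949403 when read the other way, so the first reading was used. In a bulk sample fewer dividing cells and less of these RNAs per cell cannot be told apart.

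By the authors' deposited table, all 7 rule genes had negative log2 fold changes and 3 of them were called. Cdk1 had normalized signals of 201, 301 and 160 in um148 libraries 1 to 3 and a log2 fold change of -1.61 (authors' deposited adjusted p = 0.000334). Ube2c had 247, 275 and 230 and -1.41 (authors' deposited adjusted p = 9.1e-06), and mki67 had 1070, 869 and 1155 and -1.01 (authors' deposited adjusted p = 0.0137). In the authors' deposited table top2a (-0.80), kpna2 (-0.73), aspm (-0.70) and cenpf (-0.24) were not called. The 3 um148 libraries spread widely for some of these genes, with cenpf at 478, 249 and 358.

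The lower calls in the authors' deposited table lay mainly in the mitotic lists: 12 of 32 kinetochore, spindle and cytokinesis genes and 10 of 26 mitotic kinases, cyclins and checkpoint genes, against 3 of 49 DNA replication genes, 3 of 20 chromosome structure genes, 3 of 19 brakes and 0 of 14 G1 genes. Over all genes 5.13% were lower and 6.18% higher, so the DNA replication list, at 6.12% lower, was near the share of all genes. The 5 lowest in the authors' deposited table were the Cdk inhibitor cdkn1cb (-2.48), the growth arrest gene gadd45ab (-1.96), dut (-1.94), the passenger protein survivin, birc5a (-1.81), and the kinase plk1 (-1.80). Brake genes thus stood among the lowest beside mitotic genes. Cdkn1cb had signals of 279, 29.95 and 209 in the 3 um148 libraries, so library 2 stood far below the others. The median over the division and rule genes in the authors' deposited table was -0.57 on the log2 scale, against 0.02 over all genes. Of 78 genes higher in dividing barcodes but outside the lists, 14 were lower (17.9%) and 1 higher (1.28%) in the authors' deposited table.

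**Figure D5:**
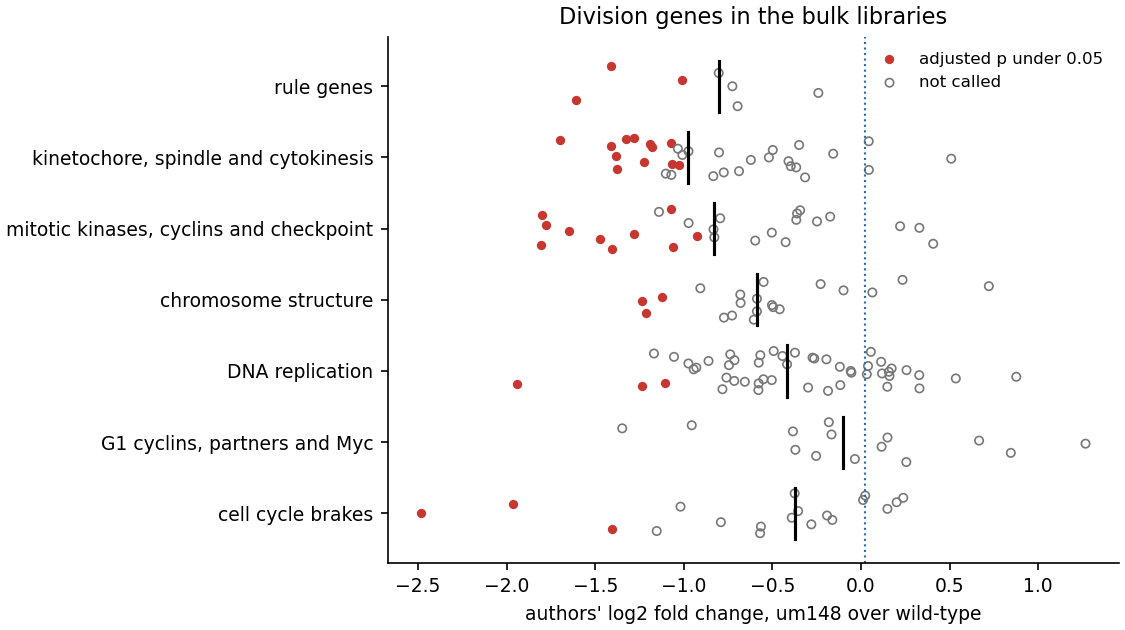
Log2 fold change of um148 over wild-type in the authors' deposited table for the rule genes and the members of 6 division lists; filled red points have an adjusted p under 0.05, open points were not called, black bars are list medians and the dotted line is the median of all genes, 0.02. All 34 called genes are lower in um148, 12 of them in the kinetochore list and 10 in the mitotic list.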

How the data were processed

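Cells sorted for pdgfrb reporters were measured in 2 single-cell 3′ libraries (10x, v3 chemistry) and 3 um148 bulk libraries. The single-cell matrices hold UMI counts for 36351 genes, deposited by the authors after barcode calling; per the file headers and the submitters' processing notes they were made with Cell Ranger 3.1.0, and the notes name the build GRCz11. Totals over called barcodes were 70247500 and 77896721 UMIs. The deposited bulk table lists 17540 genes with a normalized signal (reads divided by 1 size factor per library by the authors, as the values show), a log2 fold change of um148 over wild-type, the same as a linear ratio (fold change), a p-value and adjusted p-value, and the −log10 of the latter, each deposited by the authors. Its 687 genes without an adjusted p were not counted as called. The notes name CASAVA 1.8.2, STAR, RSEM and DESeq2 without roles; further settings are not given in the sources used here. Its 3 wild-type columns match no sample of the series and were not used, so leaving out a um148 library was done against the wild-type mean implied by the fold change.

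Counts were summed per library and class and tested with edgeR 4.0.16 (R 4.3.3; TMM, filterByExpr, quasi-likelihood, library as block). The block pairs the classes of 1 library by construction. DESeq2 1.42.0 was the alternative. The edgeR step was tested on simulated data. Python 3.11.15 with numpy 2.4.6, scipy 1.17.1 and scikit-learn 1.9.0 did the rest. Each barcode was scored against simulated doublets (2 made for every barcode) over 2000 variable genes and 30 components; the highest scores, 0.8% per 1000 kept barcodes, were removed as an alternative. A sum under 3 counts was set to 3 before a fold was taken. The division rule genes, the lists (168 division genes and 162 lineage markers) and the tests were chosen with earlier results of these data known. Named genes were the 7 rule genes; outside rule genes and division lists, the 15 with the largest and the 10 with the lowest fold of the less extreme library; the most abundant 4 division list members past the size rule and 2 not past it; the most abundant 3 markers of lineages carried by at least 5% of dividing barcodes; pdgfrb; and in um148 the rule genes and at most 5 called list members each way. Other genes named here were added after their values were seen, as members of lists whose counts are small or as genes held by 1 barcode.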

Additional observations from a re-analysis of the deposited data

Results flagged for a closer look

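UMIs of the 7 rule genes also lay in barcodes that the filters removed, and no comparison above uses them. In library 1 they numbered 1350 in barcodes with over 10% mitochondrial UMIs and 249 in barcodes with under 500 genes. In library 2 they numbered 110 and 238. Per 1000000 UMIs this is 91.5, 89.1, 57.2 and 97.1, against 182 and 198 in the kept barcodes of libraries 1 and 2. Of the 3976 and 407 mitochondria-rich barcodes 3 and 2 held at least 4 rule genes, and of the 2210 and 1924 barcodes with few genes 0 and 1 did; taken as 3 counts, the limit that 0 of 2210 allows is a share of 0.136%.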

How the results depend on the processing

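The mean share of dividing barcodes, 5.31%, was 6.17% with 3 and 4.18% with 5 rule genes required, 6.37% with a minimum of 1000 genes, 6.31% and 4.23% with mitochondrial limits of 5% and 20%, 1.56% after thinning, and 4.94% to 5.68% with 1 library left out. At the 20% limit it was 3.01% in library 1 and 5.45% in library 2. DESeq2 called 1732 genes higher and 1373 lower where edgeR called 2659 and 2347; without the library block edgeR called 2713 and 2359. With 1 library left out edgeR had no residual degrees of freedom and could not be fitted. Lineage markers called higher and lower numbered 27 and 61 (29 and 47 depth-matched, 25 and 54 by DESeq2, 27 and 65 with doublets removed, 32 and 81 without a filter). Depth-matched log2 fold changes had the other sign for 21 of 147 genes (markers and pdgfrb), 10 of which were called in at least 1 of both fits, among the named ones elavl4 (0.45), sncb (0.22), slc1a2b (0.54) and icn (-0.082); under the other settings run 0 to 2 genes changed sign, none called. Past the size rule, higher genes numbered 399 at 2-fold and 310 at 5 CPM (191 to 195 with a library left out). Lower genes numbered 154 at 2-fold, 28 against depth-matched barcodes, 33 with doublets removed and 29 to 30 with a library left out, where both libraries gave 15. The replication list had 22 members and the G1 list 1 at 2-fold. Lists carried more by dividing barcodes numbered 15, 7 thinned, 9 depth-matched (a setting chosen after seeing the data) and 17 to 19 in single libraries; lists with a dividing share above that of all barcodes numbered 15, and 7 thinned. Thinning gave medians of 17.5 replication and 30 mitotic UMIs per 10000 and 41.9% with more replication UMIs. In um148, 21 division genes were lower at an adjusted p under 0.01 and 22 among genes at or above median expression; the median was -0.58 to -0.50 with a library left out. The causes of these shifts were not tested.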
